A study of Rattus norvegicus with 2 samples.

Results

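The 36 genes described here encode proteins that fold new secretory and membrane proteins in the endoplasmic reticulum (ER), bring them across its membrane and send them on in vesicles. They were taken as the rows with these 36 symbols, a list drawn up with earlier results of these data known, and are 36 of the 32883 genes listed for each library. By function they comprise 9 folding chaperones, 4 thiol isomerases, 3 stress-induced secreted or ER factors, 3 stress sensors and transcription factors, 8 proteins of or beside the translocon, 4 signal peptidase subunits and 5 proteins of vesicle export and retrieval. The study set out to place CFTR high expresser cells (CHEs), a rare epithelial cell type of the rat upper intestine, among the secretory cells of the jejunum. Epithelium of the proximal jejunum was released with EDTA and dispase from 2 adult male rats of the outbred strain Sprague Dawley and sequenced as 1 droplet-based 3' library per rat. The rats were 6 to 8 weeks old, weighed 180 to 200 g by the labels, had fasted overnight and carried no transgene or treatment, so that the groups compared are cell classes of the same animals.

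A secreted protein enters the ER through the Sec61 translocon, loses its signal peptide to signal peptidase, gains N-linked glycans, and is folded by chaperones such as BiP (Hspa5) and by isomerases that form disulfide bonds. Folded cargo leaves in COPII-coated vesicles, while escaped ER residents are brought back by KDEL receptors in COPI-coated vesicles. When folding lags behind, the sensors IRE1, PERK and ATF6 start the unfolded protein response, which raises many of these genes. Goblet cells are known for the demand that mucin places on this machinery, and enterocytes for the export of chylomicrons.

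Rat 1 gave 12033 barcodes with 99986348 UMIs (unique molecular identifiers, which count each captured transcript once) and rat 2 gave 8252 barcodes with 66469907 UMIs, of which 5988 and 2230 cells had more than 5000 UMIs, at most 40% mitochondrial UMIs and between 200 and 5800 genes. Cells were clustered on other genes, with the 36 left out, and clusters were named from marker genes as "like" a cell type. There were 85 goblet progenitor-like cells in rat 1 and 13 in rat 2, 39 and 103 goblet-like cells, 21 and 11 endocrine-like cells, 12 and 128 tuft-like cells, 7 and 78 CHE-like cells, 1178 and 30 crypt-like cells, and 3515 and 1105 enterocyte-like cells. The progenitor-like class of rat 1 was not stable, with 141 and 144 cells under 2 other clustering seeds, 144 at a resolution of 1.0 and 146 with the ER genes among the variable genes. The summed UMIs of a class ranged from 67531 in CHE-like cells of rat 1, where 1 UMI is 14.8 CPM (UMIs per 1000000 UMIs of the class), to 47208835 in enterocyte-like cells of rat 1. Of the defining markers, all 6 goblet markers had a UMI in goblet-like cells of both rats. So did 6 of 7 endocrine markers in endocrine-like cells (Neurog3 was at 0). Tuft-like cells had 6 and 7 of 7 tuft markers, and CHE-like cells 3 and 4 of 4 CHE markers. Enterocyte-like cells of both rats also had 6 goblet and 6 endocrine markers, so that such counts do not tell classes apart. Endocrine markers summed to 26887 and 109261 CPM in endocrine-like cells and at most 341 and 921 in any other class compared. Tuft markers summed to 1896 and 4917 in tuft-like cells (elsewhere at most 29.6 and 155). CHE markers summed to 2429 and 3491 in CHE-like cells (60.2 and 148). Clusters were named from markers, so that these levels are no independent check. Goblet-like cells of rat 1 also held Paneth transcripts, with Defa24 at 18779 CPM against 2.13 in rat 2, and erythroid markers summed to 4875 and 1603 there and to 60.2 and 14092 in tuft-like cells. Without the cells that had over 1% of their UMIs on Defa24 and Lyz2, 37 and 103 goblet-like cells were left, and all calls of the 36 genes in the comparisons below were kept. The part of the erythroid transcripts was not tested. A further 220 and 41 cells with goblet and Paneth markers together, named goblet/Paneth-like, entered no comparison. Goblet progenitor-like cells lay above the same limit for Paneth markers, but were named by their cycling markers first and were kept. Nor did 624 and 65 epithelial cells whose clusters were left unnamed, with the 36 genes at 0.744% and 0.537% of their UMIs. Of these, 66 and 25 lay in a cluster with Zg16, Fcgbp and Tff3 among its leading genes. All 5 plasma cell markers were at 0 in goblet progenitor-like, goblet-like, endocrine-like and CHE-like cells of both rats.

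Promoters of stress-induced ER genes are known to carry short elements bound by ATF6, XBP1 and NF-Y, and these elements were looked for in the RefSeq window from 250 bases before to 50 bases after each start (GRCr8), on both strands. RefSeq windows were matched by symbol for 30 of the 36 genes, and not for Pdia3, Pdia6, Manf, Sec61a1, Sec24d and Kdelr2. The ER stress element ERSE (CCAAT, 9 bases of any kind, then CCACG) was found for 6 of the 30 genes (20%), against 21 of 27457 genes in the whole table (0.0765%) and 3 of 104 other genes of the same pathway (2.88%). The 7 sites of those 6 genes follow, each 5' to 3' on the strand that carries the motif. Capitals mark the ends fixed by the search and lower case the spacer, which could be of any bases.
Hspa5: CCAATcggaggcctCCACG
Hsp90b1, first site: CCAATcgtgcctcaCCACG
Hsp90b1, second site: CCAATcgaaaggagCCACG
Calr: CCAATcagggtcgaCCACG
Canx: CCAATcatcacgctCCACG
Dnajc3: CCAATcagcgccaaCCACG
Creld2: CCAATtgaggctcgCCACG

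Counted from the start as 0, the Hspa5 site ran from -43 to -25 (chr3:38452973-38452991, plus strand), the Hsp90b1 sites from -72 to -54 (chr7:23012347-23012365, plus strand) and from -176 to -158 (chr7:23012451-23012469, minus strand), and the Calr site from -232 to -214 (chr19:40213135-40213153, minus strand). The Canx site lay at chr10:35158069-35158087 (minus strand), the Dnajc3 site at chr15:102432534-102432552 (plus strand) and the Creld2 site at chr7:121789239-121789257 (minus strand). The 6 genes with an ERSE were 5 folding chaperones and the stress-induced factor Creld2. The related element ERSE-II (ATTGG, 1 base of any kind, then CCACG) was in the windows of Dnajb11, Herpud1 and Hyou1 (3 of 30, 10%, against 0.0619% of all genes and 0 of the 104). The letters TGACGTGG, the core of the unfolded protein response element, were in those of Hyou1 and Kdelr3 (6.67% against 0.681%, and 7.69% of 104 other genes of the pathway), and in Hyou1 this site overlapped an ERSE-II. TGATGCAA, a composite site bound by ATF4, was found for 1 gene, Herpud1 (3.33% against 0.827%, and 1.92% of the 104). A match describes the letters of the window and does not show that a factor binds there. Of these sites, the 2 below are given as examples, from genes whose levels are described further on.
Herpud1, ERSE-II: ATTGGgCCACG
Kdelr3: TGACGTGG

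The summed level of the 36 genes was highest in goblet progenitor-like cells among the 7 classes compared, in both rats, and lowest in CHE-like cells in both. The genes took 0.927% of the UMIs of goblet progenitor-like cells in rat 1 and 1.49% in rat 2, against 0.552% and 0.550% in crypt-like cells. Goblet-like cells held 0.642% and 0.387%, enterocyte-like cells 0.650% and 0.451%, endocrine-like cells 0.558% and 0.562%, tuft-like cells 0.518% and 0.556%, and CHE-like cells 0.384% and 0.276%. The rats thus differed more from each other in goblet-like and enterocyte-like cells than those classes differed within a rat. The share depends on what else a class holds. Goblet-like cells gave 34.0% and 37.9% of their UMIs to goblet marker genes, and without these the 36 genes took 0.972% and 0.624%, against 0.952% and 1.55% in goblet progenitor-like cells. In rat 1 goblet-like cells then had the higher share. The same held where goblet/Paneth-like cells were added to the goblet-like class, which had 1.02% and 0.786%, so that the first place of goblet progenitor-like cells in rat 1 depends on these choices. Enterocyte-like cells had a median of 14.5% and 25.1% mitochondrial UMIs per cell, against 2.39% and 3.24% in goblet-like cells, and without mitochondrial UMIs the 36 genes took 0.767% and 0.605% in the former and 0.664% and 0.410% in the latter. Single genes followed the sum in part. In 19 of 36 genes, goblet progenitor-like cells had the highest level of the 7 classes in both rats (52.8%, against 7.82% of all 8567 genes tested, in CPM without normalization factors and as a description). In 7 genes CHE-like cells had the lowest in both, although 3 of these (Hyou1, Ssr1 and Pdia6) rest on 0, 1 and 2 UMIs in CHE-like cells of rat 1, too few to rank that class for Hyou1 and Ssr1. The share of all genes that were lowest in CHE-like cells was not counted, so that the 7 are no result about these genes. The genes highest elsewhere in both rats were Kdelr3 in goblet-like cells, Dnajb9 in tuft-like cells and P4hb in enterocyte-like cells.

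**Figure D1:**
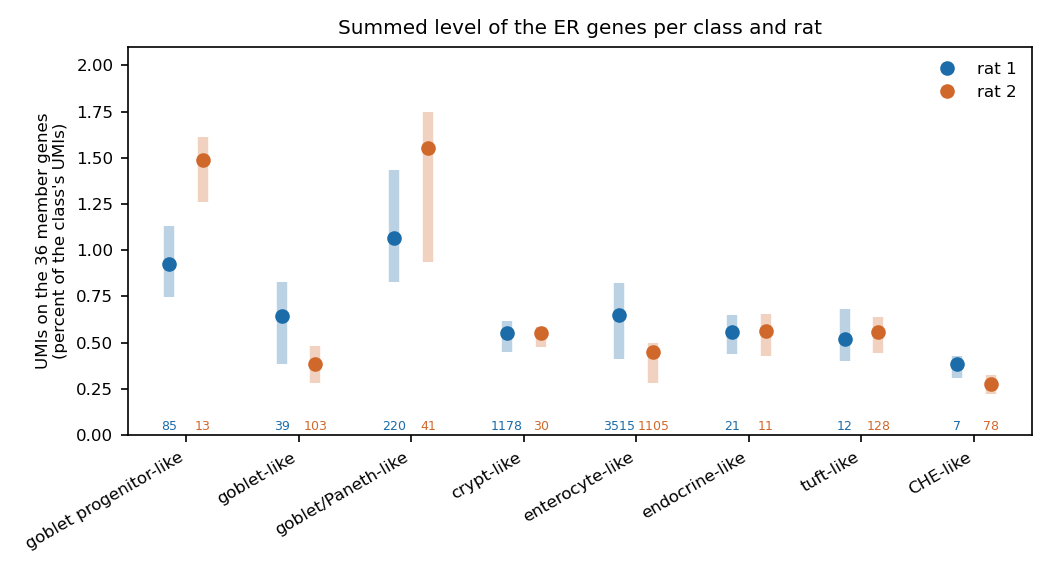
Summed level of the 36 ER genes (percent of a class's UMIs, y axis) in each cell class (x axis), with 1 point per rat; pale bars span the 25th to 75th percentile of single cells, and small numbers give the cells per class and rat. Goblet progenitor-like and goblet/Paneth-like cells lie highest in both rats (0.927% and 1.49%, 1.06% and 1.56%), and CHE-like cells lowest (0.384% and 0.276%).

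In the following, levels are CPM and compare 1 gene between classes, not genes with each other, while log2 fold changes come from edgeR's quasi-likelihood test on the summed counts of 7 classes in 2 rats, with TMM scaling, the standard error and a Benjamini-Hochberg adjusted p over 8567 genes. All 36 genes passed the filter on low counts. TMM scaling sets the bulk of genes level between classes, so that a gene with equal CPM in goblet-like and enterocyte-like cells may still have a fold change other than 0. Among all genes called, the share that was higher depended on the scaling. In goblet-like against enterocyte-like cells it was 39.5%, against 29.1% with library sizes alone and 51.8% with DESeq2. It was 43.7% in goblet-like against goblet progenitor-like cells (17.2% with library sizes alone), 77.0% in goblet-like cells against the mean of the endocrine-like, tuft-like and CHE-like cells (22.5%), 57.6% in crypt-like against enterocyte-like cells (77.2%), 45.7% in endocrine-like against enterocyte-like cells (66.0%, and 63.0% with DESeq2), 45.0% in tuft-like (74.8%) and 42.2% in CHE-like against enterocyte-like cells (59.3%). The median of the 36 genes is therefore given beside the median of all genes tested.

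**Figure D2:**
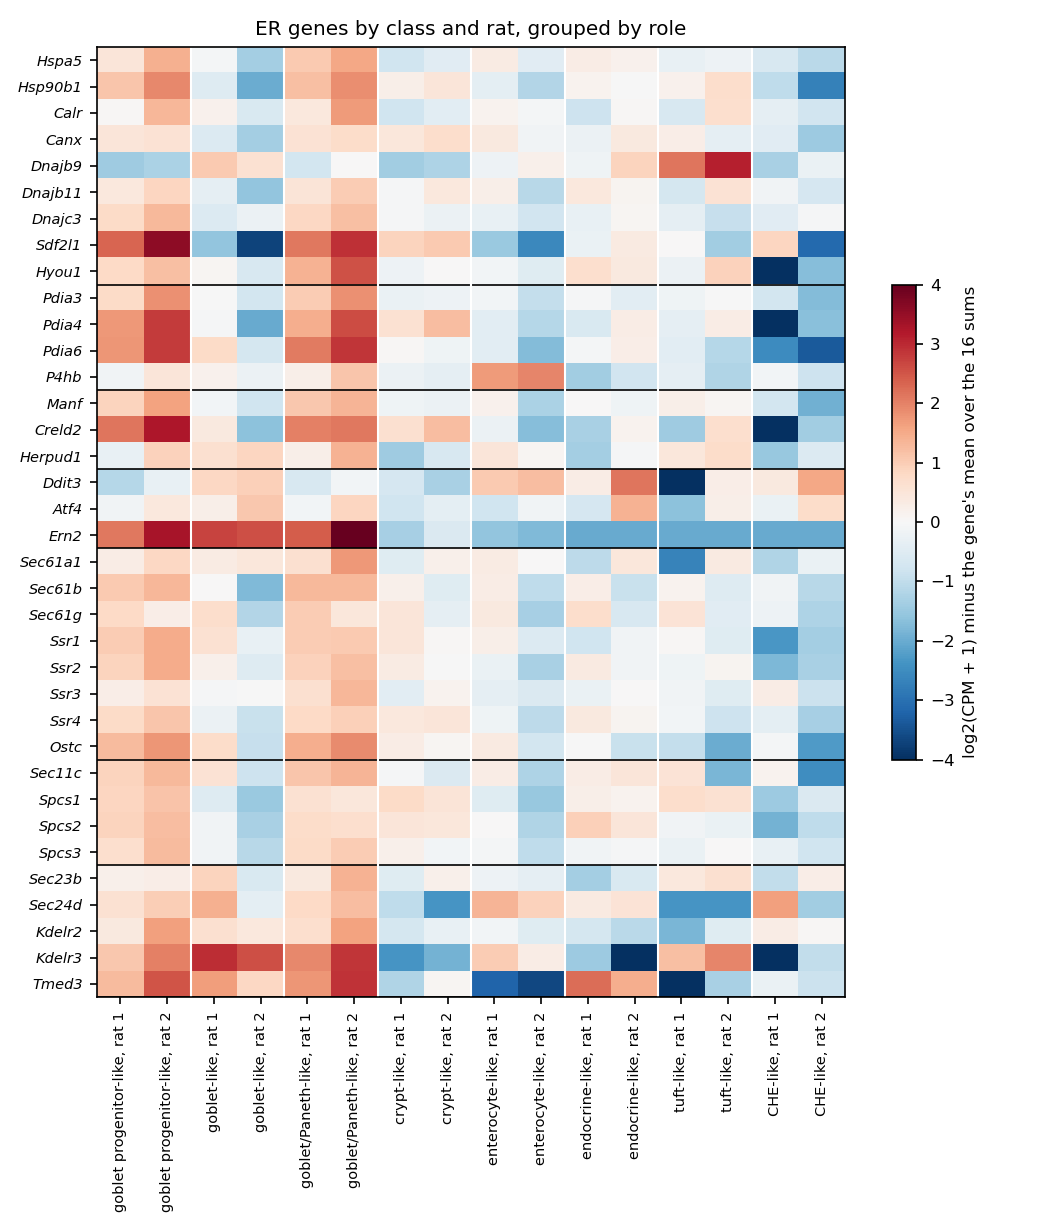
Level of each ER gene (rows, grouped by role with black lines) in each class and rat (columns), as log2(CPM + 1) minus the gene's mean over the 16 sums, which is a description without a test; the color scale is cut at 4 above and below the mean. Most rows are reddest in goblet progenitor-like and goblet/Paneth-like cells, while P4hb is reddest in enterocyte-like cells and Dnajb9 in tuft-like cells.

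Goblet progenitor-like cells, which hold cycling, goblet and Paneth transcripts together, were compared with crypt-like cells, which are clusters of stem and dividing cells. Goblet markers stood at 780 and 629 CPM in crypt-like cells against 26769 and 36654. The aim was to see whether the ER genes differ between dividing cells with many and with few goblet transcripts. The mean Paneth marker level of the progenitor-like cluster, 0.874, was above the naming limit of 0.7. It was also above that of the 2 clusters named goblet/Paneth-like (0.863 and 0.837). Of the 36 genes, 2 rose past the threshold, the sensor Ern2 and the retrieval receptor Kdelr3, where 0.537% of all genes tested did so, and none fell, as for all genes with edgeR. None of the other genes passed it. The log2 fold change was positive in both rats for 31 of 36 genes and negative in both for 2, and its median was 1.11 (0.72 in rat 1 and 1.54 in rat 2), against -0.13 over all genes tested. At an unadjusted p under 0.05, 15 of the 36 were higher and 0 lower with edgeR, where 2.96% of all 8567 genes tested were higher and 1.62% lower (254 and 139 genes). DESeq2 called 4 of the 36 higher and 0 lower after adjustment, where it called 1.05% of all genes higher and 0.0467% lower (90 and 4 genes). Paneth markers, 5 of 6 in rat 1 and 4 of 6 in rat 2 with a UMI, summed to 6518 and 6292 CPM in goblet progenitor-like cells and to 1392 and 256 in crypt-like cells, and their part in this comparison was not tested, since the removal above took out no progenitor-like cell. Immune markers summed to 192 and 69.0 CPM in goblet progenitor-like, 272 and 764 in crypt-like and 21.1 and 27.4 in enterocyte-like cells, and their part was not tested either. From the crypt-like clusters, 1 cell of rat 1 and 95 of rat 2 had been taken out for lack of epithelial UMIs. The class of rat 2 rests on 13 goblet progenitor-like and 30 crypt-like cells.

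Among the chaperones, BiP (Hspa5), the ER's Hsp70, had 551 CPM in goblet progenitor-like cells of rat 1 and 1048 in rat 2, against 226 and 283 in crypt-like cells. Its log2 fold change of 1.58 ± 0.52 did not pass (adjusted p = 0.454, edgeR). Sdf2l1, a partner of BiP's cochaperones, had 206 and 492 against 74.2 and 83.0 (2.05 ± 0.70, adjusted p = 0.513), and Hsp90b1, the ER's Hsp90, had 513 and 898 against 282 and 335. In each of these the levels of the classes did not overlap, although none of them passed the threshold. The share of all genes without overlap was not counted, so that this is no result about these genes. Canx, the membrane-bound lectin chaperone calnexin, differed little, with 285 and 300.2 against 276 and 332. Of the thiol isomerases, Pdia6 had 602 and 1234 against 180 and 156 (2.34 ± 0.56, adjusted p = 0.101), whereas P4hb, protein disulfide isomerase itself, had 318 and 492 against 298 and 275. Manf, a small secreted survival factor of the stress response, had 410 and 672 against 195 and 187, and Creld2, another secreted stress-response factor, had 131 and 282 against 45.3 and 69.1.

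Ern2 encodes IRE1-beta, the form of the sensor IRE1 known from mucus-producing epithelium. Its level was 16.5 CPM in goblet progenitor-like cells of rat 1 and 39.0 in rat 2, against 0.612 and 1.73 in crypt-like cells, and the log2 fold change was 4.93 ± 0.84 (adjusted p = 0.0289, edgeR). The counts are small, with 34 and 13 UMIs in the progenitor-like cells and 11 and 1 in the crypt-like cells. Atf4 and Ddit3 (CHOP), transcription factors of the PERK branch, had 145 and 213 against 91.1 and 121, and 9.69 and 18.0 against 13.7 and 8.64, so that Ddit3 overlapped between classes. The 8 translocon genes all had positive fold changes in both rats (median 0.77), from 0.36 for Sec61g to 1.26 for Ostc, an oligosaccharyltransferase subunit that sits at the translocon, with 376 and 540.3 against 194 and 164. The 4 signal peptidase subunits had a median of 0.67.

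The genes of vesicle export and retrieval had the largest median of the role groups, 2.34. Kdelr3, a KDEL receptor, had 102 CPM in goblet progenitor-like cells of rat 1 and 195 in rat 2, against 8.40 and 12.1 in crypt-like cells (log2 fold change 3.81 ± 0.74, adjusted p = 0.0328, edgeR). In cells thinned to 5000 UMIs, 40% and 76.9% of progenitor-like cells had a Kdelr3 UMI, against 3.23% and 3.33% of crypt-like cells (84.7% and 100% against 10.4% and 13.3% before thinning). Tmed3, a p24 cargo adaptor of ER-derived vesicles, had 45.1 and 108 against 7.28 and 19.0 (2.64 ± 0.62, adjusted p = 0.0926). Tmed3 and Pdia6 passed when the rat entered the model as a block and with DESeq2, each of which gave 4 calls. Both calls, of Ern2 and Kdelr3, were lost at a clustering resolution of 1.0 (18 genes of any kind called). They were also lost where goblet/Paneth-like cells joined the goblet-like class (23 genes), although that setting left the cells of both classes as they were. All classes share 1 fit and 1 estimate of the spread, and 9276 genes were tested in that setting. Over the alternatives with a test, the log2 fold changes stayed at 4.66 to 5.12 for Ern2 and 3.75 to 3.93 for Kdelr3. Their adjusted p reached 0.0655 and 0.0752 (edgeR). The cause of the loss was not tested.

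**Figure D3:**
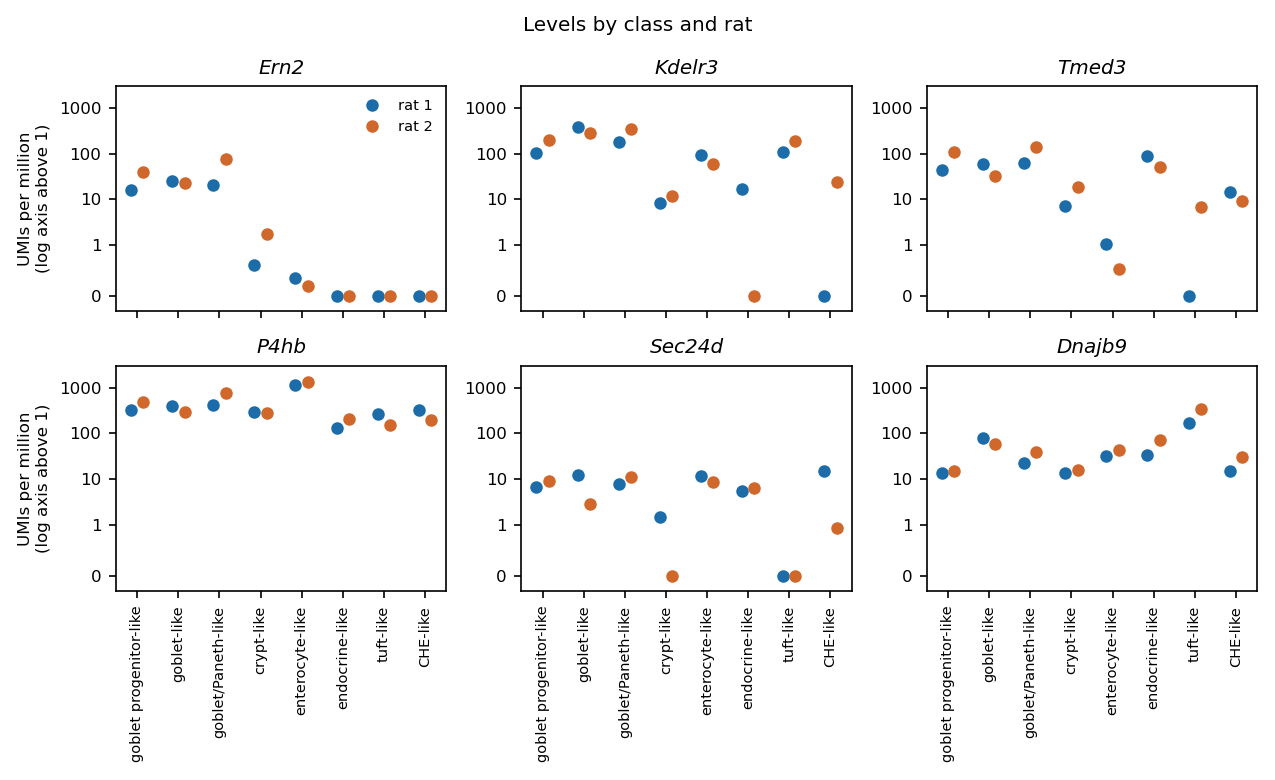
Level of Ern2, Kdelr3, Tmed3, P4hb, Sec24d and Dnajb9 (CPM, y axis, logarithmic above 1 and linear below) in each class, with 1 point per rat. Ern2 is at 0 in endocrine-like, tuft-like and CHE-like cells, Tmed3 lies at 1.08 and 0.542 in enterocyte-like cells, and P4hb is highest there (1143 and 1353).

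Goblet-like cells, which export mucus, were compared with enterocyte-like cells, which absorb nutrients and export lipoproteins. Of the 36 genes, 3 rose (Ern2, Tmed3 and Kdelr3), where 7.67% of all genes did, and 1 fell (P4hb), where 11.7% did. The median log2 fold change was 0.42, against -0.26 over all genes, with 23 genes positive and 5 negative in both rats. The chaperones lay near 0 (median -0.15). Hspa5 had 368 and 151 CPM in goblet-like cells against 494 and 285 in enterocyte-like cells, a log2 fold change of -0.36 after TMM scaling. Calr (calreticulin) had 613 and 356 against 607 and 514. The Hspa5 levels of the classes overlapped between rats.

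Ern2 had 25.2 CPM in goblet-like cells of rat 1 and 23.5 in rat 2, against 0.360 and 0.194 in enterocyte-like cells, where it rests on 17 and 5 UMIs (log2 fold change 6.66 ± 0.75, adjusted p = 0.00011, edgeR). Tmed3 had 59.8 and 32.7 against 1.08 and 0.542 (6.00 ± 0.67, adjusted p = 3.67e-05). In cells thinned to 5000 UMIs, 33.3% and 16.5% of goblet-like cells had a Tmed3 UMI, and 0.398% and 0.543% of enterocyte-like cells (38.5% and 34.0% against 1.39% and 1.18% before thinning), so that the enterocyte-like share cannot be told apart from free RNA in the droplets. Kdelr3 had 377 and 289.5 against 95.9 and 58.8 (2.39 ± 0.66, adjusted p = 0.0194), with 71.8% and 75.7% of thinned goblet-like cells positive against 35.3% and 24.7% of enterocyte-like cells (89.7% and 95.1% against 61.3% and 60.3% before thinning).

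P4hb went the other way. It had 396 CPM in goblet-like cells of rat 1 and 300.1 in rat 2, against 1143 and 1353 in enterocyte-like cells (log2 fold change -1.58 ± 0.49, adjusted p = 0.0349, edgeR). Beside its work as an isomerase, P4hb is known as the small subunit of the microsomal triglyceride transfer protein, which loads lipid onto apolipoprotein B. Pdia6, another isomerase, was at 299 and 107 against 130 and 51.5 (1.38 ± 0.55). Of these calls, Kdelr3 and P4hb were lost at a clustering resolution of 1.0, which counted 97 and 110 goblet-like cells, and Kdelr3 also where goblet/Paneth-like cells were added (adjusted p up to 0.295), while Ern2 and Tmed3 were called under all 13 alternatives that gave a test. The added goblet/Paneth-like cells also brought calls of Pdia4, Pdia6 and Sdf2l1 as higher. That setting called 5 members higher and 1 lower, where 1065 and 761 of 9276 genes were. With the rat as a block, Atf4 and Pdia6 were called as well.

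The comparison of goblet-like with goblet progenitor-like cells sets cells with cycling markers at 31.5 and 2.84 CPM against cells with 1127 and 1558. Their goblet transcripts were not the same ones. Zg16 stood at 189090 and 196160 CPM in goblet-like and 2052 and 1237 in progenitor-like cells, whereas Clca1 stood at 607 and 101 in the former and 5212 and 6841 in the latter. Paneth markers summed to 24349 and 168 CPM in goblet-like cells, so that the rats fell on either side of the 6518 and 6292 of progenitor-like cells. The part of these transcripts in the comparison was not tested, apart from the removal of goblet-like cells with Paneth transcripts, under which all 8 calls below were kept and which took out no progenitor-like cell. A lineage relation was not tested either. Here 4 of the 36 genes rose (Dnajb9, Ddit3, Kdelr3 and Herpud1), where 16.1% of all genes did, and 4 fell (Sdf2l1, Pdia4, Creld2 and Hsp90b1), where 20.7% did. The median was -0.28, against -0.18 over all genes. The rats differed, with a median of 0.25 in rat 1 and -0.58 in rat 2. The genes that fell were 2 chaperones, 1 thiol isomerase and 1 secreted factor, and those that rose were 1 chaperone, a transcription factor, a retrieval receptor and a protein of ER-associated degradation.

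Sdf2l1 had 12.6 and 2.13 CPM in goblet-like cells of rat 1 and rat 2, against 206 and 492 in progenitor-like cells (log2 fold change -4.98 ± 0.94, adjusted p = 0.00206, edgeR). Pdia4, an isomerase found in chaperone complexes, had 25.2 and 5.69 against 89.2 and 186 (-2.38 ± 0.66, adjusted p = 0.0129). Creld2 had 37.7 and 8.53 against 131 and 282 (-2.33 ± 0.77, adjusted p = 0.0282), and Hsp90b1 had 167 and 59.0 against 513 and 898 (-1.65 ± 0.55, adjusted p = 0.0295). In all 4 genes both rats lay lower in goblet-like cells and rat 2 lay lowest.

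Dnajb9, a cochaperone of BiP that restrains IRE1, had 78.6 and 57.6 CPM in goblet-like cells, against 13.6 and 15.0 in progenitor-like cells (log2 fold change 3.30 ± 0.59, adjusted p = 0.00163, edgeR). Ddit3 had 40.9 and 44.1 against 9.69 and 18.0 (2.88 ± 0.76, adjusted p = 0.0107), and Kdelr3 had 377 and 289.5 against 102 and 195 (2.27 ± 0.67, adjusted p = 0.0169). Herpud1, a membrane protein of ER-associated degradation, had 135 and 159 against 71.3 and 165, so that its levels overlapped, and its call (1.49 ± 0.55, adjusted p = 0.047) was kept under 6 of 13 alternatives. Goblet-like cells had a median of 7670 and 13204 UMIs per cell and progenitor-like cells 24097 and 25005. All 8 calls were lost at a clustering resolution of 1.0 and where goblet/Paneth-like cells joined the goblet-like class, a setting in which 0 genes of any kind were called, so that these differences hold for the narrow goblet-like cluster led by Zg16. Hsp90b1 was also lost with mitochondrial genes left out and Kdelr3 with library sizes alone, a setting that called 20 members, 2 higher and 18 lower, where it called 8.24% of all genes higher and 39.6% lower, with a median of -1.29 over all genes. With the rat as a block, Atf4 and Pdia6 were called as well.

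**Figure D4:**
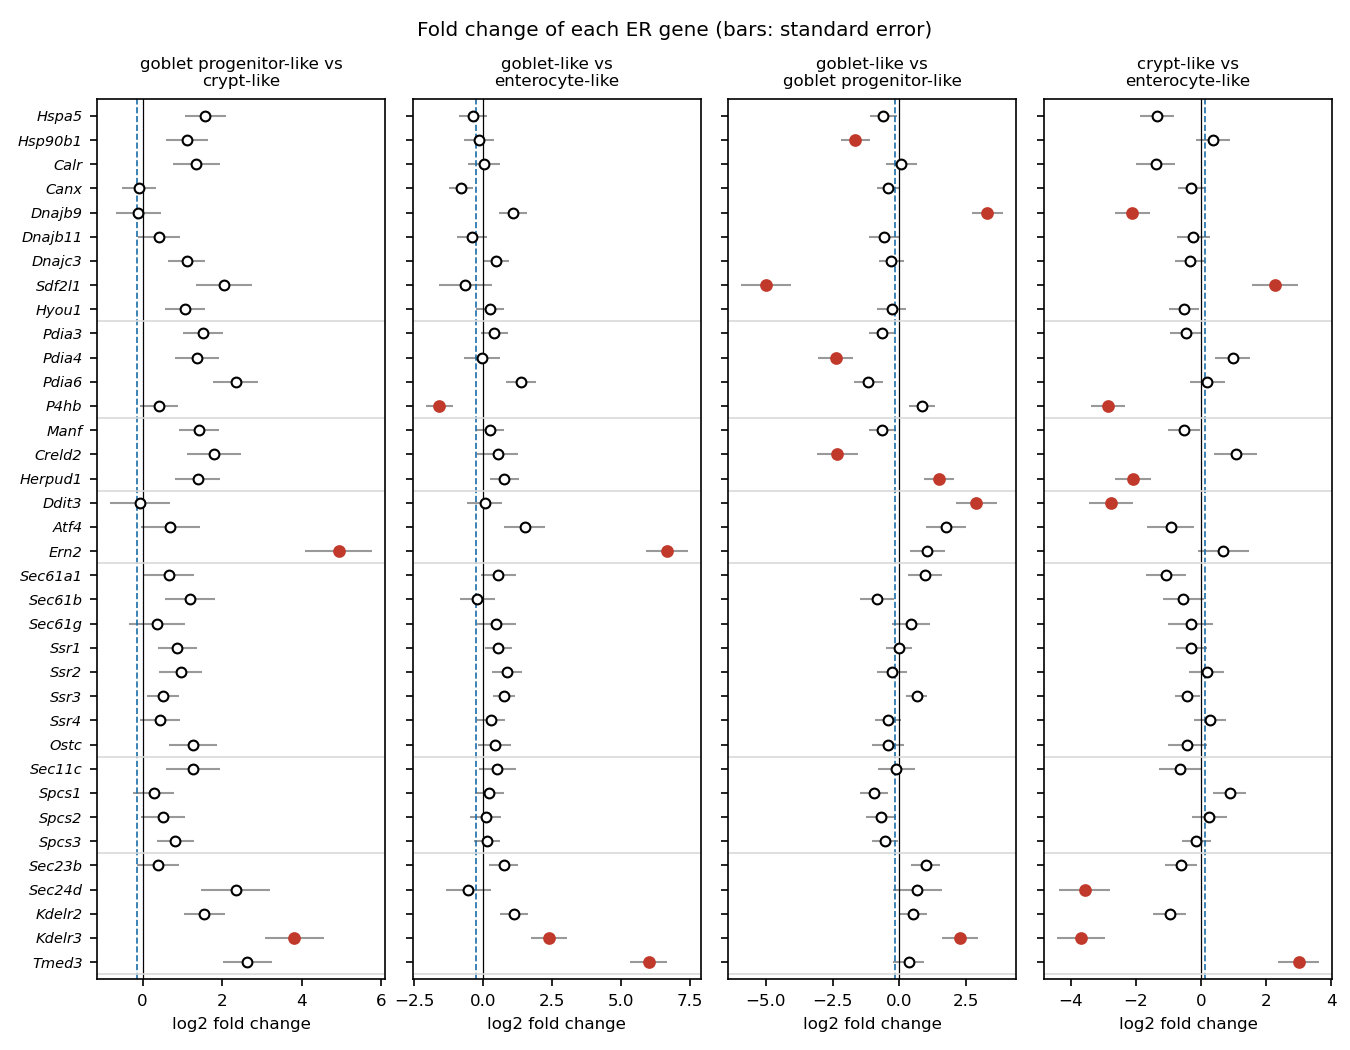
Log2 fold change of each ER gene (points, with bars of 1 standard error) in 4 comparisons, grouped by role; filled red points passed the adjusted threshold of 0.05 in edgeR's quasi-likelihood test, and the dashed blue line marks the median of all genes tested. In goblet progenitor-like against crypt-like cells 33 of 36 points lie above 0, while the 4 genes that fell in goblet-like against progenitor-like cells are Sdf2l1, Pdia4, Creld2 and Hsp90b1.

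Goblet-like cells were then set against the other secretory classes, as the mean of endocrine-like, tuft-like and CHE-like cells. Of the 36 genes, 10 rose, where 9.78% of all genes did, and none fell, where 2.93% did. At an unadjusted p under 0.05, 19 of the 36 were higher and 0 lower with edgeR, where 16.7% of all genes were higher and 10.7% lower. DESeq2 called 10 higher and 0 lower, where it called 8.95% of all genes higher and 4.37% lower. The median was 0.99 (0.93 with genes at 0 in a class set to their bound), against -0.03 over all genes, and it was 1.68 in rat 1 and 0.82 in rat 2. The genes called were Ern2, Kdelr3, Pdia6, Tmed3, Ostc, Kdelr2, Herpud1, Ssr1, P4hb and Ssr3. With library sizes alone 3 of them were called, Ern2, Kdelr3 and Pdia6, and at a clustering resolution of 1.0 there were 6 calls. With the rat as a block there were 15, with Atf4, Pdia3, Sec11c, Sec61a1 and Ssr2 added. Of 8567 genes tested, library sizes alone called 416 higher and 1437 lower, and the block 1233 and 564. At the resolution of 1.0, 441 of 9193 genes were higher and 41 lower.

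Ern2 had no UMI in the endocrine-like, tuft-like and CHE-like cells of either rat. The class totals of 335890, 1136848 and 1125889 UMIs allow up to 8.93, 2.64 and 2.67 CPM with a floor of 3 UMIs per class. Against that floor, the level of the goblet-like cells of both rats together, 23.8, was at least 2.66-fold higher than in endocrine-like cells, at least 9.01-fold higher than in tuft-like cells and at least 8.93-fold higher than in CHE-like cells (adjusted p = 0.0004 for the comparison with their mean, edgeR). Kdelr3 had 16.7 and 0 CPM in endocrine-like cells, 110.3 and 187 in tuft-like cells and 0 and 23.6 in CHE-like cells, against 377 and 289.5 in goblet-like cells (log2 fold change 4.30 ± 0.54, adjusted p = 0.000128). Its level was thus higher in tuft-like cells than in the other rare classes in both rats, a difference that was not tested. It rests on 205 UMIs in tuft-like, 3 in endocrine-like and 25 in CHE-like cells of both rats together. In CHE-like cells of rat 1, 1 UMI is 14.8 CPM. Pdia6 (299 and 107 in goblet-like cells) ranged from 16.1 in CHE-like cells of rat 2 to 212 in endocrine-like cells of rat 2, so that the levels overlapped (2.31 ± 0.44, adjusted p = 0.0028). Kdelr2, another KDEL receptor, had 170 and 146 in goblet-like cells and between 30.1 and 133 in the rare classes, where the highest, 133, was CHE-like cells of rat 1 (1.95 ± 0.41, adjusted p = 0.00542). P4hb had 396 and 300.1 against a range of 133 to 326, which overlaps (1.70 ± 0.37, adjusted p = 0.00776).

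Crypt-like cells, which hold stem and cycling transcripts, were set against enterocyte-like cells. Of the 36 genes, 2 rose in crypt-like cells (Tmed3 and Sdf2l1), where 21.6% of all genes did, and 6 fell (Kdelr3, Sec24d, P4hb, Ddit3, Dnajb9 and Herpud1), where 15.9% did. The median was -0.41, against 0.14 over all genes, with 22 genes negative and 9 positive in both rats. Kdelr3 had 8.40 and 12.1 CPM in crypt-like cells against 95.9 and 58.8 (log2 fold change -3.69 ± 0.73, adjusted p = 0.00135, edgeR). Sec24d, a cargo-binding subunit of the COPII coat, had 1.5 and 0 against 12.1 and 8.63 (-3.57 ± 0.79, adjusted p = 0.00316). P4hb had 298 and 275 against 1143 and 1353 (-2.86 ± 0.51, adjusted p = 0.000694), and no crypt-like value reached the enterocyte-like range.

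The stress genes Ddit3 and Dnajb9 were lower in crypt-like cells as well. Ddit3 had 13.7 and 8.64 CPM against 47.6 and 54.7 (log2 fold change -2.76 ± 0.68, adjusted p = 0.00552, edgeR), Dnajb9 had 13.8 and 15.6 against 32.7 and 43.2 (-2.11 ± 0.53, adjusted p = 0.00632) and Herpud1 had 31.9 and 55.3 against 123 and 92.6 (-2.10 ± 0.56, adjusted p = 0.00878). Sdf2l1 and Tmed3 were the genes on the other side. Sdf2l1 had 74.2 and 83.0 against 13.7 and 5.81 (2.29 ± 0.71, adjusted p = 0.0196), and Tmed3 had 7.28 and 19.0 against 1.08 and 0.542 (3.01 ± 0.62, adjusted p = 0.00182). All 8 calls but that of Sdf2l1, lost at a clustering resolution of 1.0 (adjusted p = 0.0557), were kept under every alternative that tested the gene, and the block added Calr, Hspa5 and Sec61a1. With library sizes alone Creld2, Pdia4 and Spcs1 were called higher as well (5 higher and 6 lower, where 35.2% and 10.4% of all genes were), and the median was 0.32.

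The rare classes were also set against enterocyte-like cells 1 by 1, comparisons that share the enterocyte-like sums. Immune markers summed to 272 and 51.3 CPM in endocrine-like, 231 and 442 in tuft-like and 14.8 and 395 in CHE-like cells. Enterocyte-like cells had 21.1 and 27.4. Erythroid markers summed to 60.2 and 14092 in tuft-like and 74.0 and 1944 in CHE-like cells, against 277 and 176. Goblet markers summed to 4389 and 12982 in endocrine-like cells, against 379 and 299.5. The part of these transcripts was not tested. In endocrine-like cells 1 of 36 genes rose (8.59% of all genes) and 2 fell (10.2%). In tuft-like cells 1 rose (10.1% of all genes) and 3 fell (12.3%), and in CHE-like cells 1 rose (5.66% of all genes) and 4 fell (7.74%). Their medians were -0.15, -0.63 and -1.13, against -0.25, -0.07 and -0.19 over all genes. The rats differed, with medians of -0.36 and 0.06 in endocrine-like, -1.07 and -0.12 in tuft-like and -1.59 and -0.74 in CHE-like cells of rat 1 and rat 2. With the rat as a block, endocrine-like cells gained Herpud1 (4 calls), tuft-like cells had 7 calls in place of 4, with Canx, Ddit3 and Kdelr2 added as lower, and CHE-like cells had 13 in place of 5, with 8 genes added as lower (Herpud1, Hsp90b1, Hspa5, Hyou1, Kdelr3, Manf, Ostc and Pdia3). Of all 8567 genes, the block called 1337 lower in endocrine-like, 1632 in tuft-like and 1083 in CHE-like cells, in place of 876, 1058 and 663. In rat 1 these classes held 12 tuft-like and 7 CHE-like cells.

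P4hb fell in all 3 classes. It had 133 and 205 CPM in endocrine-like cells, 271 and 151 in tuft-like cells and 326 and 197 in CHE-like cells, against 1143 and 1353 in enterocyte-like cells (log2 fold changes -3.44 ± 0.54, -3.51 ± 0.54 and -2.89 ± 0.52, adjusted p = 0.000434, 0.000344 and 0.00189, edgeR). Every value in the rare classes lay below both enterocyte-like values. Tmed3 rose in endocrine-like cells, with 88.9 and 51.3 against 1.08 and 0.542 (5.91 ± 0.70, adjusted p = 6.01e-05), and in CHE-like cells, with 14.8 and 9.45, which are 1 and 10 UMIs (3.31 ± 0.78, adjusted p = 0.0108). In tuft-like cells it had 0 and 6.75.

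In endocrine-like cells Kdelr3 rested on 3 UMIs, all of rat 1, and enterocyte-like cells had 9.27 times its level (95% exact counting interval 3.17 to 45.0, adjusted p = 0.0143, edgeR). Tuft-like cells were marked by Dnajb9, with 170.5 CPM in rat 1 and 335.5 in rat 2 against 32.7 and 43.2 (log2 fold change 1.94 ± 0.51, adjusted p = 0.0125). In cells thinned to 5000 UMIs, 33.3% and 69.5% of tuft-like cells had a Dnajb9 UMI, against 15.0% and 19.5% of enterocyte-like cells (41.7% and 79.7% against 32.0% and 55.5% before thinning). Tuft-like cells had no Sec24d UMI among 1136848, so that enterocyte-like cells, at 10.8 CPM, were at least 4.11-fold higher (adjusted p = 0.00825, edgeR). Sec24d fell below the filter on low counts, and so was not tested, at the mitochondrial limit of 20% and with the ER genes among the variable genes. Ostc was lower there too, at 80.2 and 38.6 against 202 and 94.5 (-2.33 ± 0.67, adjusted p = 0.0215), a call lost with library sizes alone, which called Spcs1 and Tmed3 as higher (3 higher and 2 lower in all, where 22.5% and 7.58% of all genes were).

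In CHE-like cells, 4 genes fell. P4hb is given above. Pdia6 had 29.6 and 16.1 CPM against 130 and 51.5 in enterocyte-like cells (log2 fold change -2.62 ± 0.66, adjusted p = 0.016, edgeR), and Canx had 148 and 73.7 against 264 and 182 (-1.69 ± 0.46, adjusted p = 0.024). Both calls were lost with library sizes alone, which left 2 members called. Ssr1, a subunit of the translocon-associated protein complex, had 14.8 and 30.2 against 92.9 and 53.9 (-1.76 ± 0.55, adjusted p = 0.0462), a call kept under 8 of 13 alternatives. Pdia4, Creld2 and Hyou1 had no UMI in CHE-like cells of rat 1, which held 67531 UMIs, and 7.56, 10.4 and 6.61 CPM in rat 2. At the depth of rat 1, a gene at such a level would give less than 1 UMI.

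Within the enterocyte-like class the 36 genes differed between its 6 clusters, which are named here by their leading gene. Levels are given per rat without a test, since the clusters divide the cells of each rat. The summed level was 0.939% and 0.751% in the cluster led by LOC691352, which had the lowest level of enterocyte markers, then 0.923% and 0.604% in the cluster led by Fabp6, 0.727% and 0.482% (Tmigd1), 0.520% and 0.416% (Si), 0.418% and 0.370% (Cd74) and 0.327% and 0.256% (Ada, Apoa4 also among its leading genes). The order of the clusters was the same in both rats. From the first of these clusters to the last, 28 of 36 genes were lower in both rats, 6 higher in both and 2 mixed. Since the clusters were ordered by the sum of these same genes, most had to be lower, and the count is no result.

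Hspa5 had 651 and 578 CPM in the cluster led by LOC691352 and 161 and 112 in that led by Ada, Hsp90b1 had 337 and 263 against 34.6 and 28.4, and Sec61b, a subunit of the Sec61 channel, had 797 and 420.2 against 95.9 and 29.6. P4hb stayed high throughout, from 888 to 1316 in rat 1 and from 1120 to 1494 in rat 2. The 6 genes that were higher in the cluster led by Ada were Kdelr3 (20.3 and 23.2 against 180 and 70.6), Ddit3 (29.8 and 37.5 against 152 and 80.4), Atf4, Dnajb9, Sec24d and Ern2, the last on less than 1 CPM. The median mitochondrial share per cell in the cluster led by Ada was 9.47% in rat 1 and 29.8% in rat 2, against 13.9% and 22.2% in that led by LOC691352, thus lower in the former rat and higher in the latter, and its part in these levels was not tested.

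**Figure D5:**
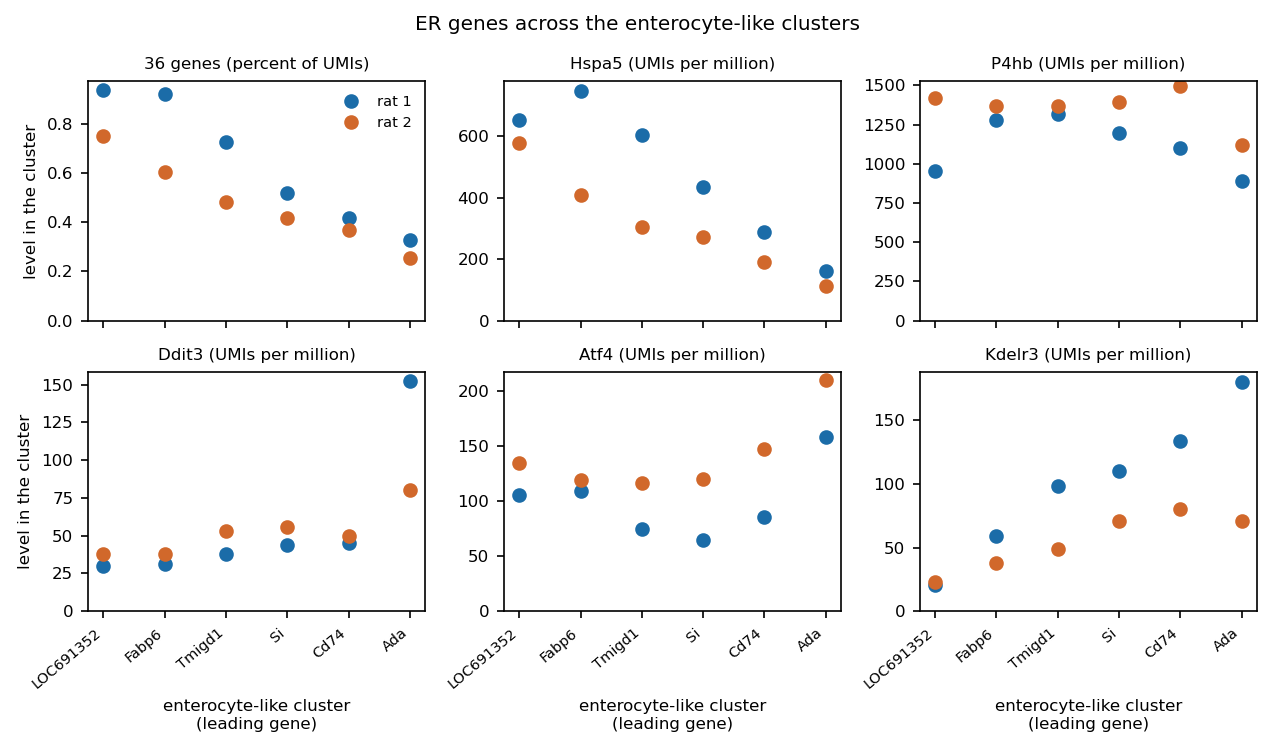
Summed level of the 36 ER genes (percent of UMIs) and levels of Hspa5, P4hb, Ddit3, Atf4 and Kdelr3 (CPM) in the 6 enterocyte-like clusters, ordered by the summed level, with 1 point per rat. The summed level goes from 0.939% and 0.751% to 0.327% and 0.256%, while Ddit3 goes from 29.8 and 37.5 to 152 and 80.4.

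Beside the 36 genes, 119 other genes of the same pathway were listed in 8 groups, of which 110 were in the files and 95 passed the filter on low counts. In goblet-like against enterocyte-like cells 13 of these 95 rose, where 7.67% of all genes did, and 7 fell, where 11.7% did, with a median log2 fold change of 0.09, against -0.26 over all genes. ER oxidation and thiol isomerases (5 of 14 rose) were led by Agr2, an isomerase needed for mucin folding, with 11923 and 2020 CPM against 44.3 and 6.50 (8.30 ± 1.22, adjusted p = 0.000295, edgeR), and Qsox1, a sulfhydryl oxidase, with 113 and 241 against 1.31 and 0.503 (7.96 ± 0.92, adjusted p = 4.44e-05). Among regulators of the unfolded protein response (5 of 14 rose), Creb3l4, a membrane-bound transcription factor, had 173 and 182 against 2.46 and 0.852 (7.05 ± 0.76, adjusted p = 2.72e-05), and Asns, asparagine synthetase, rests on 5 and 19 UMIs in goblet-like cells (5.21 ± 0.73, adjusted p = 0.000209). Tusc3 of the oligosaccharyltransferase (2.73 ± 0.64, adjusted p = 0.0077), Selenos of ER-associated degradation (1.95 ± 0.46, adjusted p = 0.00843) and the p24 protein Tmed9 (2.28 ± 0.55, adjusted p = 0.00902) also rose.

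Of the other COPII and ER exit genes, 4 of 11 fell in goblet-like against enterocyte-like cells and 7 did not pass, with a median of -1.08. Among all 11, 9 were negative and 2 positive in both rats, and Sec23b, a COPII subunit among the 36 genes, had 56.6 and 19.2 CPM against 25.8 and 23.0 (0.74 ± 0.52, adjusted p = 0.364, edgeR). Sar1b, the GTPase that starts the COPII coat and is needed for chylomicron export, had 101 and 93.2 CPM against 701 and 480 (-2.30 ± 0.46, adjusted p = 0.00273, edgeR), and Sec16b, which organises ER exit sites, had 3.15 and 8.53 against 51.3 and 67.9 (-2.73 ± 0.65, adjusted p = 0.00894). The same list had 8 of 11 genes lower in crypt-like cells (15.9% of all genes), 6 in endocrine-like cells (10.2%), 6 in tuft-like cells (12.3%) and 5 in CHE-like cells (7.74%), each against the same enterocyte-like sums. Its medians there were -1.84, -2.01, -2.47 and -1.5, against 0.14, -0.25, -0.07 and -0.19 over all genes. The other genes named by the rule in goblet-like cells were Mcfd2, a partner of the cargo receptor Lman1 (-2.11 ± 0.68, adjusted p = 0.0411), Srp19 of the signal recognition particle (-1.65 ± 0.47, adjusted p = 0.0232), and the p24 protein Tmed1, with 0 UMIs in goblet-like cells against 5.36 and 5.57 CPM (adjusted p = 0.0257). These 3 lost their call at a clustering resolution of 1.0, as did Tusc3, Selenos and Tmed9. In goblet progenitor-like against crypt-like cells 3 of the 95 rose, where 0.537% of all genes did, namely Agr2 (5.44 ± 1.07, adjusted p = 0.0329, edgeR), the thiol isomerase Txndc5, with 429 and 946 CPM against 42.1 and 58.8 (3.70 ± 0.65, adjusted p = 0.0194), and Creb3l4 (3.42 ± 0.67, adjusted p = 0.0328), all 3 calls being lost at a clustering resolution of 1.0, and the median of the 95 was 0.49.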

How the data were processed

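The deposited tables held counts of UMIs per gene and cell barcode, which the authors made with Cell Ranger against the rat genome Rnor6 (versions 3.1.0 for rat 1 and 5.0.1 for rat 2 in the file headers). Barcodes with over 5000 UMIs, over 200 and under 5800 genes and at most 40% mitochondrial UMIs were kept. This left 8218 cells, of which 7371 lay in clusters kept as epithelial. That number includes the 1 and 95 cells of rat 1 and rat 2 later taken out of the crypt-like clusters. The libraries shared 28 barcodes, 4 of them retained. Cells were clustered with Seurat 5.3.0 in R 4.3.3 in 4 rounds (2000 variable genes, 20 principal components, resolution 0.3 and then 0.5), and neither the 36 genes nor the pathway genes could be variable genes. Clusters were named from marker lists. The thresholds for naming were chosen with the clusters in view, and the last round and the cycling threshold of goblet progenitor-like cells were revised after goblet clusters changed between runs.

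UMIs were summed per class and rat (14 sums, 7 classes, 2 rats) and tested in 1 fit by edgeR 4.0.16 (quasi-likelihood, TMM, filterByExpr, 8567 genes), with Benjamini-Hochberg adjustment and a threshold of 0.05, in 8 comparisons. The p-values rest on the spread between the 2 rats within a class, shared over the 7 classes of the fit and drawn in part from other genes. With 1 library per rat, this spread also holds differences between libraries, in the make-up of a class and in counting. A rat's own log2 values carry no test. Same-numbered sums come from the same animal, so that the rat pairs the classes. The correlation of their deviations had a median of 0.19 over 21 pairs of classes (0.0863 to 0.413), and the fit with the rat as a block was an alternative. Other alternatives were DESeq2 1.42.0, no filter, no mitochondrial genes, a mitochondrial limit of 20%, removal of called doublets, removal of goblet cells with Paneth transcripts, the ER genes among the variable genes, a resolution of 1.0, and each rat left out. Doublets were kept, since Scrublet called 116 of 5988 cells (1.94%) in rat 1 and 5 of 2230 (0.224%) in rat 2, too few to have worked there. Python 3.11.15, scanpy 1.11.5, numpy 2.4.6 and scipy 1.17.1 were used. The edgeR fit was also run on simulated counts with the same spread for every gene and no effect of the rat. These data differ in both, so that the simulation gives no assurance for the results here.

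The members and lists were chosen with earlier results of these data known. All 36 genes could be named. From each pathway list, the 2 genes with the largest absolute log2 fold change among those past the threshold and of the same direction in both rats were named, in goblet-like against enterocyte-like and in goblet progenitor-like against crypt-like cells. Intervals and floors cover counting error only. The UMIs come from 3' ends, so that levels were not compared between genes.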

Additional observations from a re-analysis of the deposited data

Results flagged for a closer look

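Goblet/Paneth-like cells, which entered no comparison, held the 36 ER genes at 1.06% of their UMIs in rat 1 (220 cells) and 1.56% in rat 2 (41 cells). These sums were above those of every other class in both rats, and the cells were singled out for this signal outside the classes compared. Of their 2 clusters, however, neither was above goblet progenitor-like cells (0.927% and 1.49%) in both rats. One had 1.32% and 1.18%, the other 0.922% and 1.67%. The median cell had 1.07% and 1.29%, against 0.890% and 1.55% in goblet progenitor-like cells. Pdia6 had 735 and 1267 CPM there, Hspa5 809 and 1139 and Ern2 20.9 and 75.4. The difference was not tested.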

How the results depend on the processing

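With the rat as a replicate block, the members called went from 2 to 4 in goblet progenitor-like against crypt-like cells (131 genes in place of 46). Against enterocyte-like cells they went from 4 to 7 in tuft-like cells (2824 genes in place of 1925). In CHE-like cells they went from 5 to 13 (1737 genes in place of 1148). Against the mean of the rare classes, 1797 genes in place of 1089 were called in goblet-like cells. The pairing ended none of the members' calls, and those it added in other comparisons stand in the text above.

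In goblet-like against enterocyte-like cells, the median log2 fold change of the 36 genes (0.42) was 0.69 with DESeq2, -0.0899 without the filter, 0.14 with library sizes alone, 0.24 without goblet cells holding Paneth transcripts, 0.27 at a resolution of 1.0 and 0.68 with goblet/Paneth-like cells added. There, 2661 genes passed without the filter, and 592 genes and 2 members at a resolution of 1.0. In goblet progenitor-like against crypt-like cells, DESeq2 called 94 genes and 4 members, the fit without the filter 188 and 5, a resolution of 1.0 18 and 0, and goblet/Paneth-like cells added 23 and 0. In goblet-like against goblet progenitor-like cells, library sizes alone gave a median of -1.37 and 20 members, a resolution of 1.0 814 genes and 0 members, and goblet/Paneth-like cells added 0 and 0. Against the mean of the rare classes, library sizes alone called 1853 genes and 3 members (median 0.10), and a resolution of 1.0 482 and 6. There, goblet/Paneth-like cells added gave 414 genes and 15 members, in place of 1089 and 10. That setting gained Creld2, Hsp90b1, Hyou1, Pdia3, Pdia4 and Sdf2l1 and lost Herpud1. The median in crypt-like against enterocyte-like cells was -0.65 without the filter and 0.32 with library sizes alone. In endocrine-like cells it was 0.28 with DESeq2, -0.58 without the filter (2987 genes) and 0.38 with library sizes alone, and in tuft-like cells 0.21 with library sizes alone. In CHE-like cells the fit without the filter called 2020 genes and 12 members, library sizes alone 2 members and the mitochondrial limit of 20% 9 members. With 1 rat left out there was no test, and the median ranged from -0.58 to 0.52 in goblet-like against goblet progenitor-like cells, from 0.82 to 1.62 against the rare classes and from -0.71 to -0.24 in crypt-like against enterocyte-like cells. The mean summed level was 0.905% in goblet-like cells with goblet/Paneth-like cells added, 0.602% in endocrine-like, 0.641% in tuft-like and 0.631% in crypt-like cells without mitochondrial genes, 0.567%, 0.625% and 0.556% at the limit of 20%, and 0.56% in crypt-like cells at a resolution of 1.0. The cause of these shifts was not tested.

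Library sizes alone, the added goblet/Paneth-like cells and clustering with 2 other seeds were chosen after seeing the data. Relative to the median of all genes, the members' median kept its sign under every alternative run except in goblet-like against goblet progenitor-like cells (-0.64 to 0.66) and in endocrine-like against enterocyte-like cells (-0.014 to 0.40). Of 44 calls of members, 20 were kept under every alternative that gave an adjusted p. DESeq2 gave none for Ern2 against the rare classes. The smallest classes limit the depth, with 13 goblet progenitor-like cells in rat 2 and 7 CHE-like cells in rat 1.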

Other observations

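In goblet-like against goblet progenitor-like cells, 17 of the 95 other pathway genes rose, where 16.1% of all genes did, and 5 fell, where 20.7% did, with a median log2 fold change of 0.44, against -0.18 over all genes (edgeR, adjusted over all genes). Regulators and outputs of the unfolded protein response had 6 of 14 genes higher (median 1.40) and the COPII list 3 of 11 (median 0.93), against the same 16.1%, while the oligosaccharyltransferase list had a median of -0.31. With goblet/Paneth-like cells added to the goblet-like class, 0 genes of any kind were called in this comparison by edgeR, although 1209 had an unadjusted p under 0.05. DESeq2 was not run on that setting.

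The goblet/Paneth-like cells fell into 2 clusters, both led by Clca1. The cluster of 119 cells in rat 1 and 12 in rat 2 held the 36 genes at 1.32% and 1.18% of UMIs, and that of 101 and 29 cells at 0.922% and 1.67%.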
